A study of Mus musculus with 6 samples.

Results

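The circadian clock genes described here are the 10 members Arntl, Clock, Per1, Per2, Per3, Cry1, Cry2, Nr1d1, Bhlhe40 and Dbp, chosen by symbol. All 10 were found by Ensembl identifier among the 18732 genes of the authors' deposited table, and all 10 had an adjusted p. The table compares RNA bound to tagged ribosomes in the striatum, the forebrain nucleus through which most input reaches the basal ganglia, after morphine with that after saline. In the morphine group, 3 libraries by the labels, mice were injected under the skin with 20, 40, 60 and then 100 mg/kg morphine, 2 injections a day for 5 days. In the saline group, also 3 libraries, mice were injected with saline. All mice of both groups carried an Oprm1-Cre allele, which drives Cre recombinase from the locus of the mu opioid receptor, and RosaLSL-GFP-L10a, a ribosomal protein fused to GFP that is made once Cre has removed a stop cassette. The genotype is Oprm1Cre/+ in the sample labels but Oprm1Cre/Cre in the text on the whole series, a difference that the sources do not settle. For each library both striata of 2 brains were pooled, 24 h after the final injection, and RNA was pulled down with antibodies against GFP. The tag stays on in any cell that has had active Cre, so it marks a history of Oprm1 expression as well as its presence. Age, sex and the hour of day of tissue collection are not given in the labels, and clock genes cycle with that hour.

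In mammals, the clock is a loop of transcription and repression. CLOCK and ARNTL, also known as BMAL1, form a pair that binds the E-box sequence and turns on the Per and Cry genes, whose proteins then block the pair. A second loop runs through NR1D1, also called REV-ERB alpha, which represses Arntl, and BHLHE40, also called DEC1, which competes for the E-box. DBP carries the rhythm to other genes through D-box sequences. The striatum has such rhythms, and Per1 is also known to respond to neuronal activity and glucocorticoids.

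By the authors' deposited table, 1 of the 10 clock genes, Bhlhe40, rose after morphine at adjusted p < 0.05, and 0 fell. Per1 had the next largest estimate and did not pass. At an unadjusted p under 0.05 the authors' deposited table holds 2 members, Bhlhe40 and Per1. Of all 17279 tested genes the authors' deposited table calls 11.8% higher and 2.01% lower, and 13.8% in either direction. A count of 1 in 10 is near the share over all genes. All 10 members belong to a class of protein, described below, in which the authors' deposited table calls 4.23% in either direction. The members' median log2 fold change was -0.027, against -0.013 over all tested genes, from the values of the authors' deposited table. The 4 members above 0 were Bhlhe40 and the Per genes Per1, Per3 and Per2, and the 6 below 0 were Arntl, Clock, both Cry genes, Nr1d1 and Dbp, of which Cry1 and Dbp turned above 0 when fold changes were centred on genes of similar mean or of the same kind of protein. A positive value is taken to mean more RNA after morphine, since the authors' sheet of increases holds all positive values. The table does not name its numerator or the libraries it fitted, and the term RM-out in its title, which is not explained, could refer to a library left out of the fit. Values per library and levels per group were not analysed here, so the authors' standard errors (SE) are the measure of spread. The p values measure only the spread between these libraries, each a pool of 2 brains. No label says whether the libraries of a group came from separate cohorts, and how much of that spread is technical is not known.

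**Figure D1:**
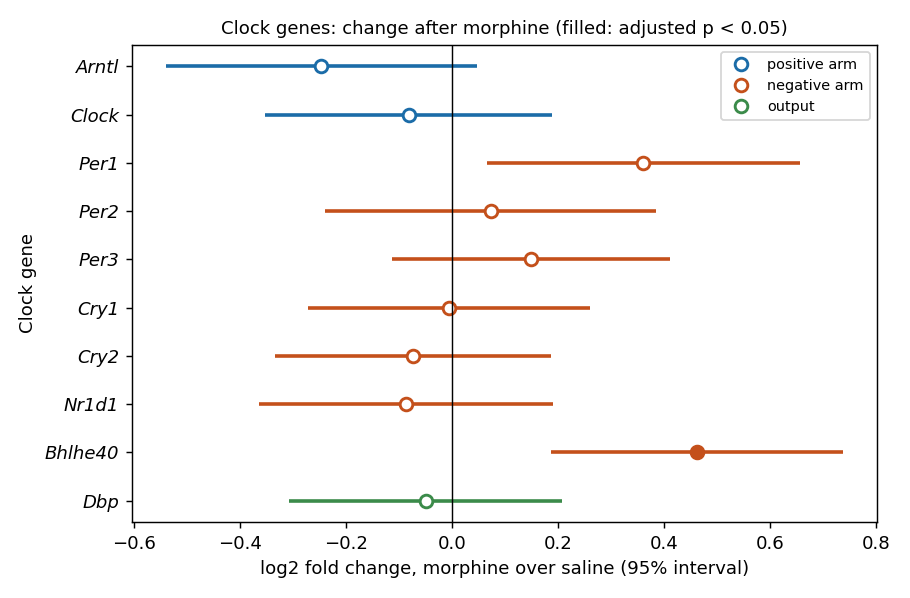
Log2 fold change, morphine over saline, of the 10 clock genes in the authors' deposited table (points) with 95% intervals made from its SEs (lines), coloured by role, filled where the adjusted p was under 0.05. Bhlhe40 is the filled point at 0.46, Per1 lies at 0.36, and the intervals of the other 8 genes hold 0.

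Bhlhe40 encodes the E-box repressor DEC1 and lies on the plus strand of chromosome 6, 108660629 to 108666925 (GRCm38, ENSMUSG00000030103). Its mean level over the fitted libraries was 4894 normalised counts in the authors' deposited table. Its log2 fold change, morphine over saline, was 0.46 by the authors' deposited table (adjusted p = 0.0101, SE 0.14), which is 1.38-fold with a 95% interval of 1.14 to 1.67. Benjamini-Yekutieli adjustment of the p values of the authors' deposited table, which allows for any dependence between genes, gave adjusted p = 0.104 and ended the call. Bhlhe40 did not pass a threshold of 0.01 either, by a small margin. An antisense gene, 0610040F04Rik, shares 118 exon bases with Bhlhe40, or 2.51% of its exon length, and had a mean of 59.3 normalised counts in the authors' deposited table. Whether reads were counted by strand is not stated in the labels.

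Markers of glia, vessels and choroid plexus were also higher after morphine. Of 33 listed, 31 were tested and 25 were higher in the authors' deposited table, with 0 lower. Their log2 fold changes in the authors' deposited table ran from 0.22 to 4.68 with a median of 1.55. Their means in the authors' deposited table ran from 13.3 normalised counts (Cldn5, endothelial) to 10202 (Mbp, myelin) and summed to 26103, so none of the 31 was at 0. C1qc and Tmem119 were not found by symbol, so nothing is said of their levels. The 11 markers of striatal projection neurons summed to 436674 normalised counts in the authors' deposited table, with Ppp1r1b, the gene of DARPP-32, at 136520. Of those 11, 5 were higher and 0 lower in the authors' deposited table. All 4 thalamic and cortical excitatory markers were higher in the authors' deposited table, as were 2 of 3 cholinergic markers. The third, Chat, the enzyme that makes acetylcholine, named after its value was seen, had -0.44 (adjusted p = 0.197, SE 0.22) in the authors' deposited table. Oprm1 itself had 658 normalised counts with a log2 difference of 0.29 (adjusted p = 0.350, SE 0.18) in the authors' deposited table. The part of other cell types in the value of Bhlhe40 was not tested, and in such RNA more cells of a type cannot be told apart from more RNA per cell. Of the 31 tested markers, 6 encode proteins with no predicted signal or membrane segment, a class described below. Among all tested coding genes with such a segment, 46.3% were higher in the authors' deposited table. How far the class of protein accounts for the marker rise was not tested.

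**Figure D2:**
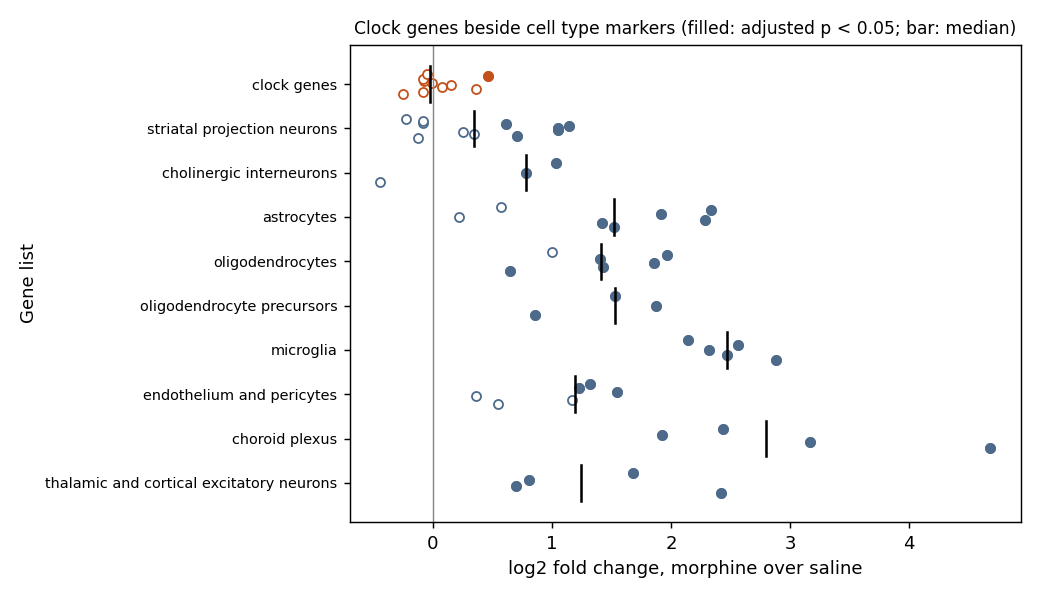
Log2 fold change, morphine over saline, of each clock gene and of each cell type marker in the authors' deposited table, 1 point a gene, filled where the adjusted p was under 0.05, with a bar at each list's median. The clock genes lie between -0.25 and 0.46, while the glia, vessel and choroid plexus markers lie between 0.22 and 4.68.

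The Per genes encode the PERIOD proteins of the repressing complex. Per1 lies on the plus strand of chromosome 11, 69095217 to 69109960 (GRCm38, ENSMUSG00000020893), with a mean of 10455 normalised counts in the authors' deposited table. Its log2 fold change in the authors' deposited table was 0.36 (p = 0.0165, adjusted p = 0.0998, SE 0.15). The 95% interval of 1.05-fold to 1.58-fold made from the authors' deposited table leaves out 1, but the adjusted p missed 0.05. With fold changes of the authors' deposited table centred on genes of similar mean level, Per1 was at 0.41 with adjusted p = 0.0477, and passed. Per2 lies on the minus strand of chromosome 1, 91415982 to 91459324 (GRCm38, ENSMUSG00000055866), and had 0.073 (adjusted p = 0.884, SE 0.16) in the authors' deposited table. Per3, on the minus strand of chromosome 4, 151003652 to 151044665 (GRCm38, ENSMUSG00000028957), had 0.15 (adjusted p = 0.611, SE 0.13) in the authors' deposited table. The 95% intervals of the 3 Per genes overlap one another, and differences between them were not tested.

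Sequences are shown for the 3 members whose RefSeq promoter windows hold an E-box or a D-box, since the loop is known to act through these letters. Each window is the 250 bases before a RefSeq start in GRCm38.p6, read along the gene's strand, and of the 10 members 8 had at least 1 such window (12 in all), while Per2 and Bhlhe40 were not searched here. Capitals mark the E-box CACGTG and the D-box TTATGNAA, searched on both strands. The windows are chr11:69098699-69098948 on the plus strand for Per1, which lies inside the longer GENCODE gene, chr10:85185055-85185304 on the minus strand for Cry1 and chr4:151044666-151044915 on the minus strand for Per3.
Per1: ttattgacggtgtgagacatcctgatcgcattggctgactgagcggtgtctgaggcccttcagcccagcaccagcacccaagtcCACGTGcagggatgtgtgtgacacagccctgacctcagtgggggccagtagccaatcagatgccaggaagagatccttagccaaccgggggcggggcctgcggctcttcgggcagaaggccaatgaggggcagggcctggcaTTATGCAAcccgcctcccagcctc
Cry1: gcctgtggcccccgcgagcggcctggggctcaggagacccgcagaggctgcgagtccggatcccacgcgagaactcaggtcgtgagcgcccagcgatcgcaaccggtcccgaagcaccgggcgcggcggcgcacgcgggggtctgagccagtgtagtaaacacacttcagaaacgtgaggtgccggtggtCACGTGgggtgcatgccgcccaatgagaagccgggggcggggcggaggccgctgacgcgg
Per3: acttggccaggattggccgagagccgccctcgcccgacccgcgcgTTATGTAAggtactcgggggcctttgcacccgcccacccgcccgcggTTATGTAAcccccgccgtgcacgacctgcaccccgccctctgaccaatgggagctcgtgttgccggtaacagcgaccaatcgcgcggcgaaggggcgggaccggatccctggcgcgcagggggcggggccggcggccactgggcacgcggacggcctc
The E-box of Per1 begins 166 bases before the start and that of Cry1 begins 60 bases before it. Per1 also has a D-box beginning at 24 bases, and Per3 has 2, beginning at 205 and 158 bases. An E-box stands in 6.02% of the 32851 RefSeq windows of this length and a D-box in 3.07%. The 2 members with an E-box in these windows had estimates of 0.36 (Per1) and -0.0053 (Cry1) in the authors' deposited table. Neither passed, their 95% intervals overlap, and the difference between them was not tested. A match is a run of letters and not a measured binding site.

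The Cry genes encode the cryptochromes, partners of the PERIOD proteins, and neither passed the test. Cry1, on the minus strand of chromosome 10, 85131700 to 85185064 (GRCm38, ENSMUSG00000020038), stood at -0.0053 on the log2 scale (adjusted p = 0.991, SE 0.14) in the authors' deposited table. Its 95% interval, from the authors' deposited table, was 0.828-fold to 1.20-fold. Cry2, on the minus strand of chromosome 2, 92403646 to 92434043 (GRCm38, ENSMUSG00000068742), had -0.073 (adjusted p = 0.852, SE 0.13) in the authors' deposited table, an interval of 0.794-fold to 1.14-fold.

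Nr1d1, the gene of the nuclear receptor that represses Arntl, lies on the minus strand of chromosome 11, 98767932 to 98775333 (GRCm38, ENSMUSG00000020889). The authors' deposited table gave it -0.086 (adjusted p = 0.829, SE 0.14) at a mean of 11085 normalised counts, an interval of 0.777-fold to 1.14-fold. Its exons share 263 bases, or 8.55% of their length, with Thra on the opposite strand, a thyroid hormone receptor gene at 77681 normalised counts in the authors' deposited table. Reads of the shared bases cannot be told apart without strand. Thra had 0.087 (adjusted p = 0.782, SE 0.12) in the authors' deposited table.

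The activating pair had estimates below 0 in the authors' deposited table, as did 62.4% of tested genes in their class of protein, described below. Centred on the median of that class, Arntl was at -0.19 and Clock at -0.020. Arntl lies on the plus strand of chromosome 7, 113207465 to 113314126 (GRCm38, ENSMUSG00000055116). The authors' deposited table gave it the lowest value of the 10 members, -0.25 (adjusted p = 0.355, SE 0.15), with an interval of 0.688-fold to 1.03-fold. Clock, on the minus strand of chromosome 5, 76209868 to 76304792 (GRCm38, ENSMUSG00000029238), had -0.081 (adjusted p = 0.838, SE 0.14) in the authors' deposited table, an interval of 0.784-fold to 1.14-fold. Neither passed, and a call would have needed 0.40 and 0.37 on the log2 scale at their SEs in the authors' deposited table.

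Dbp, the output factor that binds D-boxes, lies on the plus strand of chromosome 7, 45705088 to 45710203 (GRCm38, ENSMUSG00000059824). It had -0.049 (adjusted p = 0.909, SE 0.13) in the authors' deposited table at a mean of 12242 normalised counts, an interval of 0.809-fold to 1.16-fold. Sphk2, a sphingosine kinase gene on the opposite strand, shares 539 exon bases with Dbp, 18.0% of its exon length. Sphk2 had -0.18 (adjusted p = 0.539, SE 0.14) in the authors' deposited table.

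All 10 genes had means above most genes. These means in the authors' deposited table, 2526 to 13256 normalised counts, lay at the 72.2 to 94.2 percentile of tested genes. Their SEs in the authors' deposited table, 0.13 to 0.16, were 0.984 to 1.17 times the median of the 1000 genes nearest in mean. At these SEs the smallest fold that could be called, from the authors' deposited table, was 1.28 to 1.35. For 8 of the 9 uncalled members the 95% interval lay within a 1.5-fold change in either direction, the exception being Per1, whose interval reached 1.58-fold. An estimate under the fold that its SE allows could not have been called.

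Per kilobase of annotated exon, the output gene and the second-loop repressor had the highest levels. Dbp had 4090 and Nr1d1 3603 normalised counts per kilobase, from the means of the authors' deposited table. Per1 (1857) and Cry2 (1787) came next on the same scale of counts per kilobase from the authors' deposited table. Bhlhe40 (1040), Clock (966) and Cry1 (908) followed, and Per2 (534), Per3 (343) and Arntl (336) were lowest, in counts per kilobase from the authors' deposited table. With the length of 1 coding transcript per gene instead, a choice made after the values were seen, Dbp and Nr1d1 still led at 6664 and 4074 counts per kilobase. Cry2 (2840) then stood above Per1 (2238), Arntl (1025) above Cry1 (1002), and Per3 (549) above Per2 (536), in counts per kilobase from the authors' deposited table. The table gives no spread for these means, so neighbours in the order cannot be separated. Dbp shares 18.0% of its exon bases with Sphk2, and Nr1d1 8.55% with Thra, each on the opposite strand. Whether reads of the shared bases add to or are lost from these 2 levels was not tested.

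**Figure D3:**
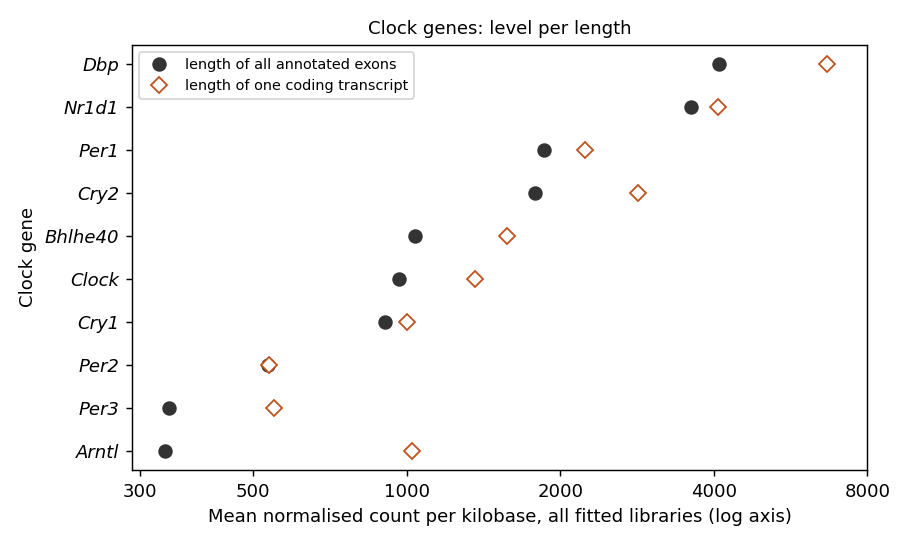
Mean normalised count per kilobase of each clock gene over the fitted libraries, from the authors' deposited table, on a log axis, with the union of annotated exons (filled circles) or the transcript with the longest coding sequence (open diamonds) as the length. Dbp and Nr1d1 lead under both lengths, at 4090 and 3603 by all exons, while Arntl has 336 by all exons and 1025 by 1 transcript.

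The members also share a class of protein. All 10 encode proteins with no predicted signal or membrane segment, by the hydropathy of the protein that each gene's longest reading frame encodes. Of 9861 tested coding genes of that class, the authors' deposited table calls 2.82% higher and 1.41% lower, or 4.23% in either direction, with a median log2 fold change of -0.062. Of the 3609 with a segment, it calls 46.4% in either direction, 46.3% higher and 0.0554% lower, with a median of 0.58 in the authors' deposited table. Among genes of the members' class and range of means, 1.81% were higher and 2.08% lower in the authors' deposited table. Of the 31 tested glia, vessel and choroid plexus markers 6 belong to this class. Within it, Bhlhe40 stood at the 93.4 percentile of log2 fold change, Per1 at the 91.5 and Arntl at the 13.5, from the values of the authors' deposited table. With each gene centred on the median of its class, Bhlhe40 was at 0.52 (adjusted p = 0.00565) and Per1 at 0.42 (adjusted p = 0.0706), from the authors' deposited table. That centring covers the 13470 coding genes of the 2 classes and, by subtracting each class's median, itself evens the split, to 434 higher and 410 lower of 844 called. Over the same genes without centring, a comparison added after the values were seen, p values of the authors' deposited table adjusted over those genes called 1990 higher and 154 lower of 2144. Over all 17279 genes the authors' deposited table has 2036 higher and 347 lower of 2383.

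**Figure D4:**
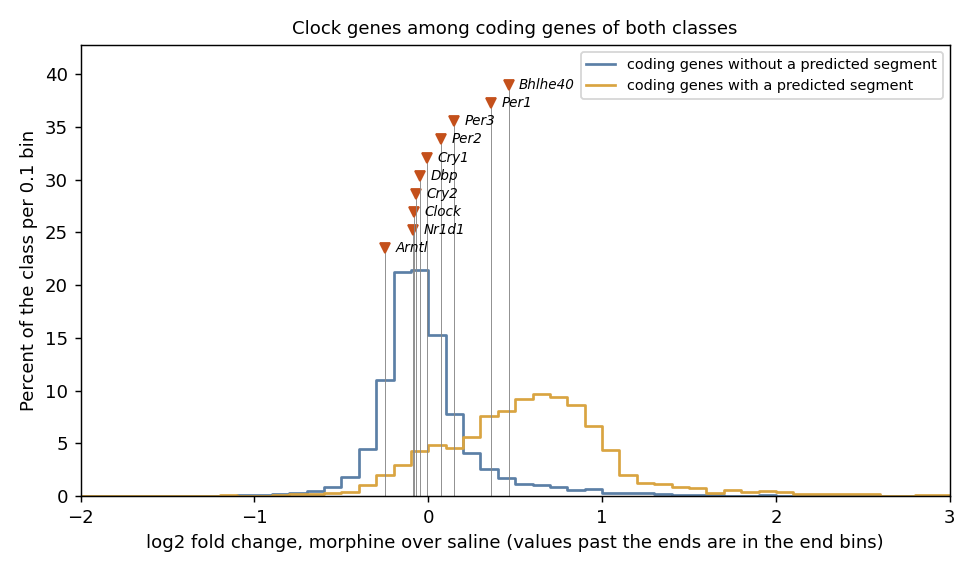
Share of genes per bin of log2 fold change, morphine over saline, for coding genes with and without a predicted segment in the authors' deposited table, with each clock gene at its own value (triangles, at heights set for legibility). The class without a segment, to which all 10 clock genes belong, has its median at -0.062 and the class with a segment at 0.58.

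The wider clock list as reported holds 40 genes, the 10 members included, all tested and none with a predicted segment. By the authors' deposited table Bhlhe40 was higher, 1 gene, and 0 were lower. Of all tested genes it calls 11.8% higher and 2.01% lower. Of tested coding genes without a predicted segment it calls 2.82% higher and 1.41% lower, and 1 in 40 is near these class shares. None of the 30 genes outside the members passed, and 1 of them, Ppp1ca, had an unadjusted p under 0.05 in the authors' deposited table. In the positive arm of 6 genes none passed. Rorb, a nuclear receptor of the ROR family that activates Arntl, had 0.31 (adjusted p = 0.361, SE 0.19) in the authors' deposited table. Npas2, a paralog of Clock that is known for its expression in forebrain, had -0.10 (adjusted p = 0.737, SE 0.12) in the authors' deposited table. In the negative arm of 11 genes, Bhlhe40 alone passed, and Ciart, a repressor of the activating pair, had 0.14 (adjusted p = 0.662, SE 0.14) in the authors' deposited table.

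Of the 4 genes made up of the PAR bZIP factors and their antagonist Nfil3, none passed. Tef had 0.19 (adjusted p = 0.468, SE 0.14), Nfil3 0.11 (adjusted p = 0.850, SE 0.20) and Hlf -0.069 (adjusted p = 0.873, SE 0.14) in the authors' deposited table. None of 3 further E-box driven genes passed. Nampt, an enzyme of NAD synthesis, had -0.18 (SE 0.13), the ubiquitin protease gene Usp2 0.13 (SE 0.13) and the kinase gene Wee1 0.045 (SE 0.15) in the authors' deposited table.

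None of the 16 kinases, ubiquitin ligases and other partners of the clock proteins passed. In the authors' deposited table, 15 of the 16 estimates lay below 0, with a median of -0.16, and 62.4% of tested coding genes without a predicted segment also lay below 0. Centred on genes of similar mean level, 12 of the 16 lay below 0, and centred on their class of protein, 11 did. The phosphatase gene Ppp1ca had -0.30 (p = 0.0292, adjusted p = 0.154, SE 0.14) in the authors' deposited table. Csnk1e, a kinase that marks PERIOD proteins for breakdown, had -0.23 (adjusted p = 0.245, SE 0.12) and the kinase gene Gsk3b -0.25 (adjusted p = 0.293, SE 0.14) in the authors' deposited table.

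**Figure D5:**
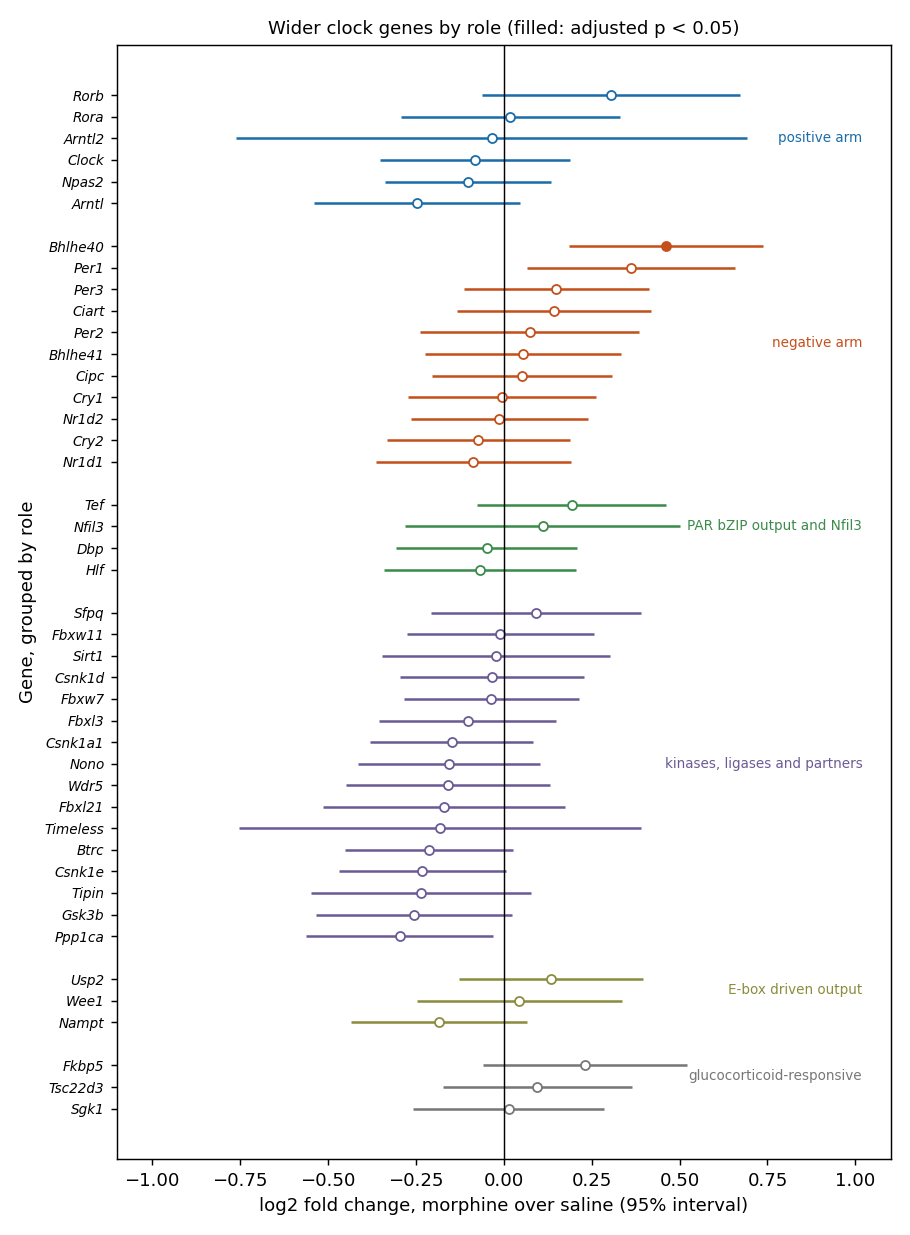
Log2 fold change, morphine over saline, with 95% intervals from the authors' deposited table, for the 40 genes of the wider clock list and 3 glucocorticoid-responsive genes, grouped by role and filled where the adjusted p was under 0.05. Bhlhe40 is the filled point, and of the 16 kinases, ligases and partners 15 lie left of 0 (11 when centred on their class of protein).

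Genes known to respond to glucocorticoids, as Per1 does, were set beside it. Fkbp5 had 0.23 (adjusted p = 0.392, SE 0.15), Tsc22d3 0.095 (adjusted p = 0.798, SE 0.14) and Sgk1 0.014 (adjusted p = 0.977, SE 0.14) in the authors' deposited table. None passed, and all 3 estimates lay between 0 and that of Per1.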

How the data were processed

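The authors' deposited table has 4 sheets of 1 comparison, morphine against saline, and each smaller sheet repeats values of the full one. The submitters' processing notes name DESeq2 1.20.0, STAR 2.6.1d and 2 builds, mm10 and GRCm38. Neither the labels nor the file headers state the read counter, model formula or filters. The deposited mean per gene is a signal, the average of size-factor-scaled counts in the fitted libraries. The deposited fold changes and SEs are in log2 units. The deposited Wald statistic is a score, the fold change over its SE. The deposited p-values come from that two-sided test, with Benjamini-Hochberg adjustment over 17279 genes. Depth per library is unknown. The 1453 genes without an adjusted p had means of at most 10.9.

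Genes were matched to symbols, positions and exons of GENCODE M21 on GRCm38 (18726 identifiers matched, 6 did not). Intervals at 95% are normal intervals from the deposited SE. A membrane segment was 19 residues averaging 1.9 or more on the Kyte-Doolittle scale, and a signal segment 12 of the first 40 residues averaging 2.2 or more. Genes with a segment only in the last 50 residues, and mitochondrial families, were in neither class. Promoter windows came from RefSeq, GRCm38.p6.

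The members and lists were chosen with earlier results of these data known. From the wider list, 1 gene is not reported here. The text names all members, each called gene of the wider list and up to 3 uncalled genes per role by p. Alternatives were 2 other sets of genes to adjust over, thresholds of 0.1 and 0.01, Benjamini-Yekutieli adjustment 2 centrings of the fold changes and, added later, adjustment over the coding genes of both classes. The Benjamini-Hochberg adjustment and the centring on mean level were tested on simulated data in which rises and falls were equally likely. The authors' deposited table calls 2036 higher and 347 lower, an uneven split that the simulated data did not cover. The other steps were not tested in that way. Scripts ran in Python 3.11.15 with pandas 2.3.3, scipy 1.17.1, numpy 2.4.6, matplotlib 3.10.9 and Biopython 1.88.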

Additional observations from a re-analysis of the deposited data

How the results depend on the processing

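The count of clock genes called, 1 of 10 and 1 of 40 in the wider list, was also 1 when adjusted over all 18732 genes, over genes whose mean reached 100, with centring within the predicted-segment class, and over the 13470 coding genes of the 2 classes without centring, which was added after seeing the data. It was 2 in both lists at adjusted p under 0.1 and with centring within 20 bins of mean level, Per1 being the second gene. It was 0 in both at adjusted p under 0.01 and with Benjamini-Yekutieli adjustment. All genes called numbered 2383 of 17279, against 1551 with Benjamini-Yekutieli adjustment. They numbered 2861 at adjusted p under 0.1, 1751 at adjusted p under 0.01 and 2348 with centring within 20 bins of mean level. Adjusted over all genes they numbered 2339 of 18732, and over genes whose mean reached 100 they numbered 2148 of 12486. Centring within the class called 844 of the 13470 coding genes, where 2144 of the 13470 were called without centring. Over the 8 alternatives Bhlhe40's adjusted p ran from 0.00206 to 0.104 and Per1's from 0.0477 to 1. Cry1 and Dbp, both uncalled, turned sign under both centrings. No paired analysis was possible because the table gives no values per library, and for the same reason leaving out each library was not run. Precision rests on the deposited SEs alone.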

Other observations

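Promoter letters of the clock loop were counted over all tested coding genes without a predicted segment that have a RefSeq window, as a description and with no test. With an E-box (CACGTG) in the 250 bases before a start, 22 of 762 genes, 2.89%, were higher in the authors' deposited table. Without one, 191 of 7032, 2.72%, were higher in the authors' deposited table. The median log2 fold changes in the authors' deposited table were -0.071 with the E-box and -0.058 without it. With a D-box (TTATGNAA), 5 of 170 genes, 2.94%, were higher, against 208 of 7624, 2.73%, without it, in the authors' deposited table. With the cyclic AMP element TGACGTCA, 6 of 253 genes, 2.37%, were higher, against 207 of 7541, 2.74%, without it, in the authors' deposited table. For the ROR element core TAGGTCA the counts were 2 of 156, 1.28%, with it and 211 of 7638, 2.76%, without it, in the authors' deposited table. In the same class, the share lower in the authors' deposited table was 1.31% with and 1.29% without the E-box, 1.76% and 1.29% for the D-box, 0.791% and 1.31% for the cyclic AMP element, and 1.28% and 1.30% for the ROR element core. Over all tested genes with a window, whatever their class, 170 of 1132 genes, 15.0%, were higher with the E-box and 1333 of 10645, 12.5%, without it, in the authors' deposited table. For the D-box 47 of 281, 16.7%, were higher with it and 1456 of 11496, 12.7%, without it, in the authors' deposited table. For the cyclic AMP element 33 of 350, 9.43%, were higher with it and 1470 of 11427, 12.9%, without it, in the authors' deposited table. For the ROR element core 18 of 223, 8.07%, were higher with it and 1485 of 11554, 12.9%, without it, in the authors' deposited table. None of the 12 windows of the clock genes held an exact match to TGACGTCA or TAGGTCA. The 50 bases after each start and sequence further away were left out. The search therefore does not show that a clock gene lacks either element.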
